A study of Mus musculus with 6 samples.

Results

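Lysosomes break down sugar chains, sulfated glycans, lipids, peptides and nucleic acids with acid hydrolases, each with its own kind of substrate. The 38 genes described here encode such enzymes, a membrane acetyltransferase that works with them, and small proteins that carry lipids or present them. They leave out the cathepsins. They were taken from the deposited table of 55401 genes by gene name, and each of the 38 names matched 1 row. By main substrate, 15 act on glycans, 6 remove sulfate, 10 act on lipids or present them, 3 act on peptides, 3 on nucleic acids and 1 on phosphate esters. Not all are soluble in the lysosome: Hgsnat is a membrane enzyme, Hyal2 is anchored at the cell surface, and Pld3 and Pld4 are made as membrane proteins.

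The RNA came from bone marrow-derived macrophages (BMDMs), cells that grow out of mouse bone marrow in culture with M-CSF, a growth factor for macrophages. The data hold 3 libraries of the Lamtor5 knockdown genotype and 3 of wild type (WT), both induced with M-CSF. The study's description names the mutant animals HBXIPΔLysM; HBXIP is another name of Lamtor5, and LysM stands for the Lyz2 promoter, which is used to drive Cre recombinase in myeloid cells. The sources used here do not give the strain, the age and sex of the animals, the Cre status of the WT animals or whether libraries came from separate animals. The p-values therefore reflect how far these 6 libraries differ, and that variation may be only technical.

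Lamtor5 is a subunit of Ragulator, which holds the Rag GTPases and with them mTORC1 on the lysosome surface. Active mTORC1 keeps the transcription factor TFEB out of the nucleus, and TFEB and its relatives bind the sequence CACGTG in the promoters of many lysosomal genes. In macrophages the hydrolases described here digest engulfed cells, microbes and lipoproteins, and inherited loss of single members causes lysosomal storage diseases.

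Library sizes were alike, with 26001754 to 27241050 read pairs in the knockdown and 27733072 to 27990481 in WT, and 75763536 to 81339783 estimated counts in the knockdown and 82467733 to 83178570 in WT. Levels are given as FPKM, the fragments per kilobase of transcript and sequencing depth, as deposited. Lamtor5 was at 25.5, 27.1 and 24.8 FPKM in the knockdown libraries, against 55.9, 54.5 and 56.2 FPKM in the WT libraries, so every knockdown library was below every WT library. Lyz2 was at 29379, 24743 and 22454 FPKM in the WT libraries, above every knockdown library, though it did not pass (adjusted p = 0.408 in edgeR). Knockdown replicate 3 stood apart even from its group at Lyz2, with 73.6 FPKM against 11356 and 10650.0 FPKM in knockdown replicates 1 and 2. Results are therefore also given without knockdown replicate 3. Macrophage markers were present in every library, with Cd68 at 1273 to 1571 FPKM in knockdown cells and 930.2 to 971.2 FPKM in WT, and Adgre1 at 62.7 to 73.5 FPKM in knockdown cells and 107 to 166 FPKM in WT. Of 6 macrophage markers Cd68 rose, while Adgre1, Csf1r, Itgam and Fcgr1 fell. The summed level of 5 mast cell, basophil and eosinophil markers, 2 of which rose, was 5.95 to 14.2 FPKM in knockdown cells and 1.84 to 3.74 FPKM in WT. That of 4 B cell markers was 0.391 to 2.84 FPKM in knockdown cells and 3.20 to 5.001 FPKM in WT, with none called. Of 5 neutrophil markers 1 rose, with a sum of 67.3 to 116 FPKM in knockdown cells and 83.7 to 129 FPKM in WT. The erythroid marker Hba-a1 rose, with 3.02, 4.15 and 0.546 FPKM in knockdown cells and 0.342, 0.314 and 0.448 FPKM in WT (log2 fold change 2.80, adjusted p = 0.0469). T cell, dendritic, erythroid and fibroblast markers each summed to under 10 FPKM in every library, and Cd3g was at 0 in all 6. Of 4 osteoclast markers 2 were tested and none was called. In bulk RNA, fewer cells of a type and less RNA per cell cannot be told apart, and the part of these markers in the results below was not tested.

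The comparison asked which of the enzyme genes differ in macrophages with less Lamtor5. Of the 38 genes 8 were higher in the knockdown: Gaa, Glb1, Arsg, Pla2g15, Plbd2, Tpp1, Dnase2a and Pld3. Pld4 and Hgsnat were lower, and 28 genes did not pass. A gene passed when its Benjamini-Hochberg adjusted p in edgeR's quasi-likelihood test, over all 18164 genes tested, was under 0.05. All 38 genes were tested. Among all tested genes 4.87% passed as higher and 6.46% as lower, so the enzyme genes had a larger share of higher calls (21.1%) and a like share of lower ones (5.26%). Called genes are more frequent among abundant transcripts: of the 2173 tested genes with a mean of at least 20 FPKM, 12.1% were higher and 11.3% lower, against 7 and 2 of the 25 enzyme genes at that level. Of the 397 genes with at least 100 FPKM, 17.4% were higher and 12.1% lower, against 1 and 1 of 9 enzyme genes. The median log2 fold change of the 38 genes was 0.32, with a range of -0.78 to 1.43, against 0.02 over all tested genes, and 32 of 38 were above 0 (51.5% of all tested genes). The median also differed by level. It was 0.33 for the enzyme genes with at least 20 FPKM, against 0.04 for all tested genes there. With at least 100 FPKM it was 0.31, against 0.21.

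The calls leaned on single libraries. Without knockdown replicate 3, 4 genes were higher (Gaa, Arsg, Tpp1 and Pld3; 1.98% of all genes) and 2 lower (Pld4 and Hgsnat; 2.17% of all genes). Without WT replicate 2 edgeR called 0 of 18979 genes (0%). In that fit 19 of the 38 enzyme genes had an unadjusted p under 0.05 (16 higher, 3 lower), compared with 21.4% of all genes. DESeq2 without that library, a fit chosen after seeing the data, called 8 higher (5.12% of all genes) and 2 lower (6.07%). These were not the same 10 genes: Pla2g15 and Dnase2a were lost, and Gla and Hyal1 were gained. On all 6 libraries DESeq2 called 15 enzyme genes higher (9.42% of all genes) and 3 lower (11.8%). Without a filter on low counts edgeR called 6 higher (1.81% of all genes) and 2 lower (2.47%). The 10 genes that passed had the same sign in each of the 6 fits with 1 library left out. Their groups did not overlap in FPKM, so leaving out 1 library could hardly change the sign. Without knockdown replicate 3 the log2 fold changes of the 10 genes were -0.72 (Hgsnat) to 1.17 (Arsg), and the median over the 38 genes was 0.26.

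Of all 38 genes, the knockdown libraries lay wholly above WT in FPKM for 18 (16.3% of tested genes did so) and wholly below for 5 (21.3%). The 10 genes that passed are among these. The others were Gla, Hexa, Neu1, Fuca1, Hyal2, Sgsh, Npc2, Psap, Gm2a and Scpep1 above WT, and Manba, Ids and Arsb below it.

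**Figure D1:**
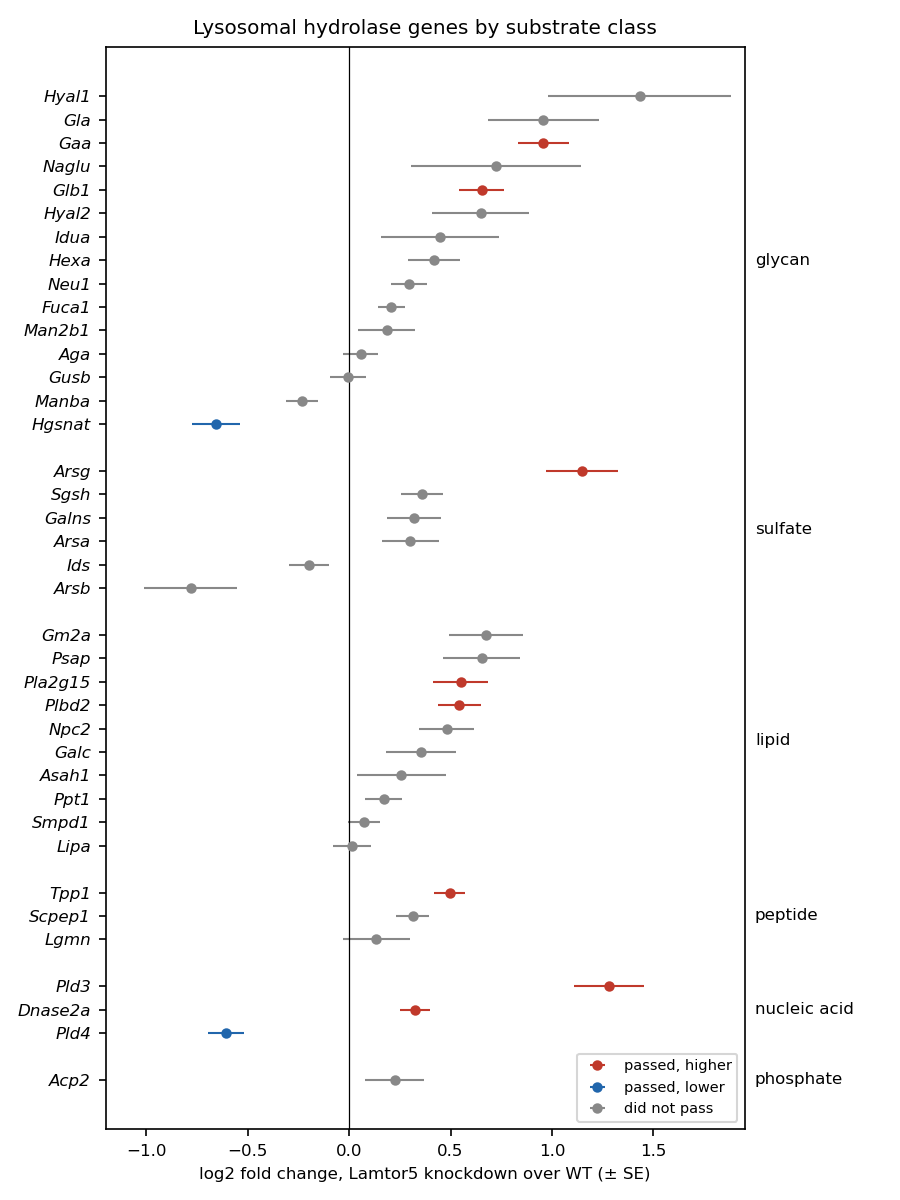
Log2 fold change of the 38 lysosomal enzyme genes, knockdown over WT, from edgeR (x axis; points with standard errors), grouped by substrate and sorted within each group. Red points passed as higher, blue as lower and grey did not pass. The 10 lipid genes all lie above 0, Lipa only just at 0.01, while Pld3 at 1.28 and Pld4 at -0.61 lie on opposite sides.

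The genes did not spread evenly over the libraries of a group. Knockdown replicate 3 held the highest knockdown level for 27 of the 38 genes (71.1%), compared with 31.2% of all tested genes. In WT, replicate 1 was highest for 24 genes and replicate 3 lowest for 26. The summed level of the 38 genes was 11845, 10896 and 12663 FPKM in knockdown replicates 1 to 3 and 9722, 8040 and 6978 FPKM in WT replicates 1 to 3. Much of it was Psap, which made up 71.6% to 73.9% of the sum in the knockdown and 65.5% to 70.9% in WT. Without Psap the sum was 3095, 3017 and 3594 FPKM in knockdown cells and 2831, 2609 and 2407 FPKM in WT, so the groups did not overlap with or without it. The replicate spread of single genes was moderate, with a median coefficient of variation of 8.15% in the knockdown and 10.6% in WT.

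**Figure D2:**
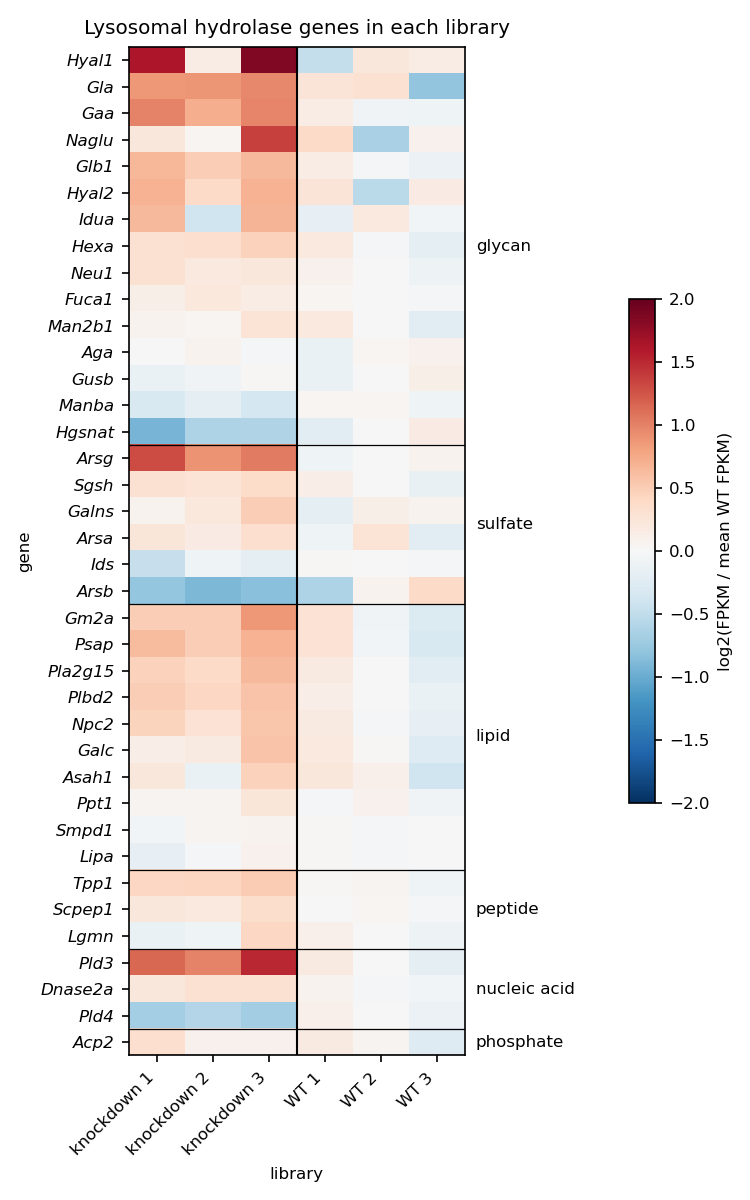
Level of each enzyme gene in each library, as the log2 ratio to its mean WT FPKM (color scale), with the 3 knockdown libraries left of the line and the 3 WT libraries right of it. Rows are grouped by substrate; in knockdown replicate 3 most rows are redder than in the other knockdown libraries, and Naglu is far above its WT mean in that library.

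Promoters were looked at because TFEB and its relatives bind CACGTG. RefSeq (GRCm38.p6) gave windows of 250 bases before to 50 after the start for 33 of the 38 genes; Hgsnat, Aga, Galns, Asah1 and Plbd2 had none. Both sequences searched, CACGTG and TCACGTGA, read the same on either strand, and the longer holds the shorter. Of the 33 genes 7 held CACGTG (21.2%), against 2187 of 27025 genes with such a window (8.09%). They were 2 of the 7 higher genes with a window (Gaa and Glb1), 5 of the 25 that did not pass (Gla, Naglu, Arsa, Sgsh and Lgmn), and not Pld4. TCACGTGA occurred in Gla alone, against 1.12% of genes. A match is a stretch of letters and not a measured binding site. For the 2 higher genes 150 bases are shown, ending before the RefSeq start or the deposited table's gene start, whichever lies upstream, and 30 bases around each match for the others, with CACGTG in capitals.
Gaa (chr11:119267737-119267886, plus strand): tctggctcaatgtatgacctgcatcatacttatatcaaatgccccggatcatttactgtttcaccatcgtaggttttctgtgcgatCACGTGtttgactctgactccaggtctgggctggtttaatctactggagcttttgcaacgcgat
Glb1 (chr9:114400926-114401075, plus strand): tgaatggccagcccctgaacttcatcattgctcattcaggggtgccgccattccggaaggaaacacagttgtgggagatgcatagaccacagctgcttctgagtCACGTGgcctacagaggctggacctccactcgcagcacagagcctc
Gla (chrX:134601215-134601244, minus strand): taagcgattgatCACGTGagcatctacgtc
Gla (chrX:134601182-134601211, minus strand): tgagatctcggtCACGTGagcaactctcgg
Naglu (chr11:101070009-101070038, plus strand): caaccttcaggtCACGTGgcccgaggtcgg
Arsa (chr15:89477423-89477452, minus strand): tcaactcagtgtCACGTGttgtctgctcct
Sgsh (chr11:119355522-119355551, minus strand): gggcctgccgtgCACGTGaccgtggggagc
Lgmn (chr12:102439124-102439153, minus strand): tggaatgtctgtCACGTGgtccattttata
Counted in bases from the RefSeq start, which in Gaa lies 76 bases inside the gene of the deposited table, the match began at -140 in Gaa and at -48 in Glb1. The 2 matches of Gla were at -227 and -194, that of Naglu at -73, that of Lgmn at -49, that of Sgsh at -29 and that of Arsa at -16. The RefSeq start also lay inside the deposited gene by 120 bases in Gla, 82 in Naglu, 26 in Sgsh, 2 in Glb1 and 1 in Arsa. By the deposited gene bounds the matches of Naglu and Lgmn lay inside the gene, and that of Sgsh spanned its start. Lgmn has 2 windows, and the match is in 1 of them.

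Among the genes for glycan breakdown, Gaa and Glb1, whose enzymes remove end sugars, were higher, and Hgsnat, a gene of heparan sulfate breakdown, was lower. Of 15 genes 2 rose (13.3%, against 4.87% of all tested genes) and 1 fell (6.67%, against 6.46%). The median log2 fold change was 0.42. Gaa (ENSMUSG00000025579, GRCm38 chr11:119267887-119285454, plus strand) encodes acid alpha-glucosidase, which breaks down glycogen in the lysosome. It was at 74.0, 61.7 and 73.2 FPKM in the knockdown libraries, against 41.2, 35.2 and 35.0 FPKM in WT. The groups lay well apart, with a log2 fold change of 0.96 (SE 0.126, adjusted p = 0.0120 in edgeR), and 0.91 without knockdown replicate 3. Without WT replicate 2 the adjusted p of Gaa was 0.0652, the value nearest to the threshold among the enzyme genes in that fit.

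Glb1 (ENSMUSG00000045594, chr9:114401076-114474898, plus strand) encodes the beta-galactosidase that acts on GM1 ganglioside and keratan sulfate. Its level was 81.3, 72.7 and 80.5 FPKM in knockdown cells and 57.0, 50.1 and 47.2 FPKM in WT. All knockdown libraries were above all WT libraries, with a log2 fold change of 0.65 (SE 0.112, adjusted p = 0.0187). The call was lost without knockdown replicates 1 (adjusted p = 0.0660) or 3 (0.0575), and without WT replicates 2 (0.0895) or 3 (0.0599). Tmppe, a gene on the same strand within the Glb1 locus, was at 4.65 ± 0.282 FPKM in knockdown cells and 4.61 ± 0.127 FPKM in WT (mean ± SD, n = 3).

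Hgsnat (ENSMUSG00000037260, chr8:25944453-25976753, minus strand) encodes the acetyltransferase that adds an acetyl group to the end glucosamine of heparan sulfate so that the next enzyme, encoded by Naglu, can remove it. It was at 16.7, 20.6 and 20.8 FPKM in knockdown cells, against 27.4, 31.9 and 35.4 FPKM in WT. The knockdown mean was 61.3% of the WT mean, and the log2 fold change was -0.66 (SE 0.119, adjusted p = 0.0211). The adjusted p was above the threshold without knockdown replicates 1 (0.0652) or 2 (0.0554), and without WT replicates 2 (0.0874) or 3 (0.0617).

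Gla encodes the alpha-galactosidase that trims globosides, and it did not pass. It had 91.3, 92.1 and 97.2 FPKM in knockdown cells and 59.4, 61.2 and 28.8 FPKM in WT (log2 fold change 0.96, SE 0.274, adjusted p = 0.0688). WT replicate 3 was far below the other WT libraries. Without it the log2 fold change was 0.67 for Gla, which then passed (adjusted p = 0.0396), and 0.90 for Gaa. Hexa, the alpha subunit of beta-hexosaminidase and the most abundant glycan gene, was at 580.1, 588 and 646 FPKM in knockdown cells and 536, 456 and 410.5 FPKM in WT (log2 fold change 0.42, adjusted p = 0.0803). Its groups did not overlap either, and the same held for Neu1 (sialidase), Fuca1 (fucosidase) and Hyal2 (hyaluronidase) above WT and for Manba (beta-mannosidase) below it, with adjusted p from 0.0806 to 0.123.

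The 6 remaining glycan genes overlapped between the groups. Naglu was at 45.3, 39.8 and 99.6 FPKM in knockdown cells and 50.2, 24.6 and 40.9 FPKM in WT, so that only knockdown replicate 3 lay above the WT range. Hyal1, a low gene, had 1.89, 0.682 and 2.21 FPKM in knockdown cells and 0.443, 0.719 and 0.682 FPKM in WT, and its log2 fold change of 1.43 was the largest of the 38 with an SE of 0.451. Idua, Man2b1, Aga and Gusb had log2 fold changes of -0.01 to 0.45. Gusb, the beta-glucuronidase gene often used as a lysosomal marker, averaged 116 ± 6.37 FPKM in knockdown cells and 120.2 ± 10.3 FPKM in WT.

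Sulfatases remove sulfate groups from glycosaminoglycans and sulfolipids and share a catalytic residue that Sumf1 makes. Of the 6 genes Arsg rose (16.7%, against 4.87% of all tested genes) and 5 did not pass, and the log2 fold changes had both signs. Arsg (ENSMUSG00000020604, chr11:109473374-109573330, plus strand) encodes a sulfatase of heparan sulfate. It had 2.02, 1.52 and 1.68 FPKM in knockdown cells and 0.769, 0.824 and 0.856 FPKM in WT, all low levels. The knockdown mean was 213% of the WT mean (log2 fold change 1.15, SE 0.178, adjusted p = 0.0158). The adjusted p was 0.0524 without knockdown replicate 1, 0.0771 without WT replicate 2 and 0.0501 without WT replicate 3. Slc16a6, which overlaps Arsg on the other strand, was at 3.81 ± 0.258 FPKM in knockdown cells and 4.40 ± 0.709 FPKM in WT. The sources do not say whether counting used strand, so reads of the pair cannot be told apart.

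Sgsh, the heparan N-sulfatase gene, was the most abundant of the class with 20.01, 19.6 and 20.9 FPKM in knockdown cells, against 17.9, 16.2 and 14.7 FPKM in WT (log2 fold change 0.36, adjusted p = 0.0682). Arsb, the sulfatase of dermatan sulfate, had 4.10, 3.74 and 3.91 FPKM in knockdown cells and 4.56, 7.35 and 9.10 FPKM in WT (log2 fold change -0.78, adjusted p = 0.0718). Arsb was the lowest value of the 38, with close knockdown libraries and a wide WT spread (coefficient of variation 32.7%). Ids, the iduronate sulfatase gene, also had its knockdown libraries below WT (log2 fold change -0.20, adjusted p = 0.227), while Galns and Arsa overlapped between the groups.

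All 10 genes of the lipid class had a log2 fold change above 0, from 0.01 to 0.67, and 2 of them passed. Pla2g15 (ENSMUSG00000031903, chr8:106150399-106164715, plus strand) encodes the lysosomal phospholipase A2. It was at 45.03, 42.8 and 51.4 FPKM in knockdown cells and 37.1, 33.1 and 28.3 FPKM in WT (log2 fold change 0.55, SE 0.135, adjusted p = 0.0469). The value was just under the threshold: it passed without WT replicate 1 (0.0301) and not without any other library (0.0657 to 0.154). Plbd2 (ENSMUSG00000029598, chr5:120483282-120503625, minus strand) encodes a lysosomal protein related to phospholipase B. Its level was 26.9, 25.6 and 28.3 FPKM in knockdown cells and 21.0, 19.0 and 17.4 FPKM in WT (log2 fold change 0.54, SE 0.105, adjusted p = 0.0249). It was lost without knockdown replicates 1 (0.0772) or 3 (0.0737), and without WT replicates 2 (0.107) or 3 (0.0707).

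The activator and carrier proteins of this class were abundant. Psap, the precursor of the saposins that lift sphingolipids to their hydrolases, had 8750.4, 7879 and 9069 FPKM in knockdown cells, against 6891, 5431 and 4571 FPKM in WT (log2 fold change 0.65, SE 0.190, adjusted p = 0.0716). Gm2a, the activator of ganglioside GM2 breakdown, had 77.4, 77.9 and 101 FPKM in knockdown cells and 67.3, 52.8 and 45.5 FPKM in WT (log2 fold change 0.67, adjusted p = 0.0612). Npc2, which carries cholesterol inside the lysosome, was at 265, 238 and 288 FPKM in knockdown cells and 220.2, 191 and 175 FPKM in WT (log2 fold change 0.48, adjusted p = 0.0649). None of the 3 passed edgeR. Their groups did not overlap (37.6% of all tested genes) and each had an unadjusted p under 0.05 (30.2% of all tested genes), so both traits were common. Each passed in DESeq2 and in edgeR without WT replicate 1, the highest WT library for all 3. None passed in edgeR without any other single library (adjusted p 0.0673 to 0.224). The same held in DESeq2 without WT replicate 2 (adjusted p 0.0755 to 0.140). The other 5 genes of the class overlapped between the groups: Galc (galactosylceramidase), Asah1 (acid ceramidase), Ppt1 (palmitoyl-protein thioesterase), Smpd1 (acid sphingomyelinase) and Lipa. Lipa, for the acid lipase of cholesteryl esters, averaged 201 ± 16.8 FPKM in knockdown cells and 206 ± 4.53 FPKM in WT.

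The nucleic acid class, with 3 genes, was the only one in which every gene passed. Of these 2 were higher (4.87% of all tested genes) and 1 lower (6.46%). Pld3 (ENSMUSG00000003363, chr7:27532000-27553218, minus strand) and Pld4 (ENSMUSG00000052160, chr12:112760655-112768990, plus strand) encode exonucleases of the phospholipase D family that digest single-stranded nucleic acids in endolysosomes and limit signalling by nucleic acid-sensing Toll-like receptors. Pld3 was at 360, 324 and 460 FPKM in knockdown cells and 183, 162 and 143 FPKM in WT. The knockdown mean was 234% of the WT mean (log2 fold change 1.28, SE 0.173, adjusted p = 0.0123), and 1.11 without knockdown replicate 3. Pld4 fell, with 139, 148 and 138 FPKM in knockdown cells and 239, 224 and 205 FPKM in WT (log2 fold change -0.61, SE 0.0882, adjusted p = 0.0141), that is 63.6% of the WT mean. The FPKM ratio of Pld3 to Pld4 was 2.59, 2.19 and 3.33 in the knockdown libraries and 0.766, 0.723 and 0.695 in the WT libraries, and the more abundant gene of the pair differed between the groups.

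Both calls were lost without WT replicate 2 (adjusted p = 0.0657 for Pld3 and 0.0709 for Pld4), and that of Pld4 also without knockdown replicate 1 (0.0538). Pld4 is known from dendritic and B cells as well as macrophages. The 4 dendritic cell markers summed to 0.119 to 0.398 FPKM in knockdown cells and 0.261 to 0.517 FPKM in WT. The 4 B cell markers, whose sums are given above, had log2 fold changes of -1.70 to -1.40. Among the dendritic markers Siglech had -1.97, Xcr1 -1.09, Flt3 0.03 and Zbtb46 0.28. None of these B cell and dendritic markers passed. Their part in the lower level of Pld4 was not tested. Dnase2a (ENSMUSG00000003812, chr8:84908560-84914521, plus strand) encodes the acid endonuclease with which macrophages cut the DNA of engulfed cells. It had 31.1, 32.7 and 32.8 FPKM in knockdown cells and 27.9, 26.2 and 25.5 FPKM in WT. The step was small (log2 fold change 0.33, SE 0.0748, adjusted p = 0.0391), and the call held without WT replicate 1 (0.0277) but not without any other library (0.0909 to 0.158).

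**Figure D3:**
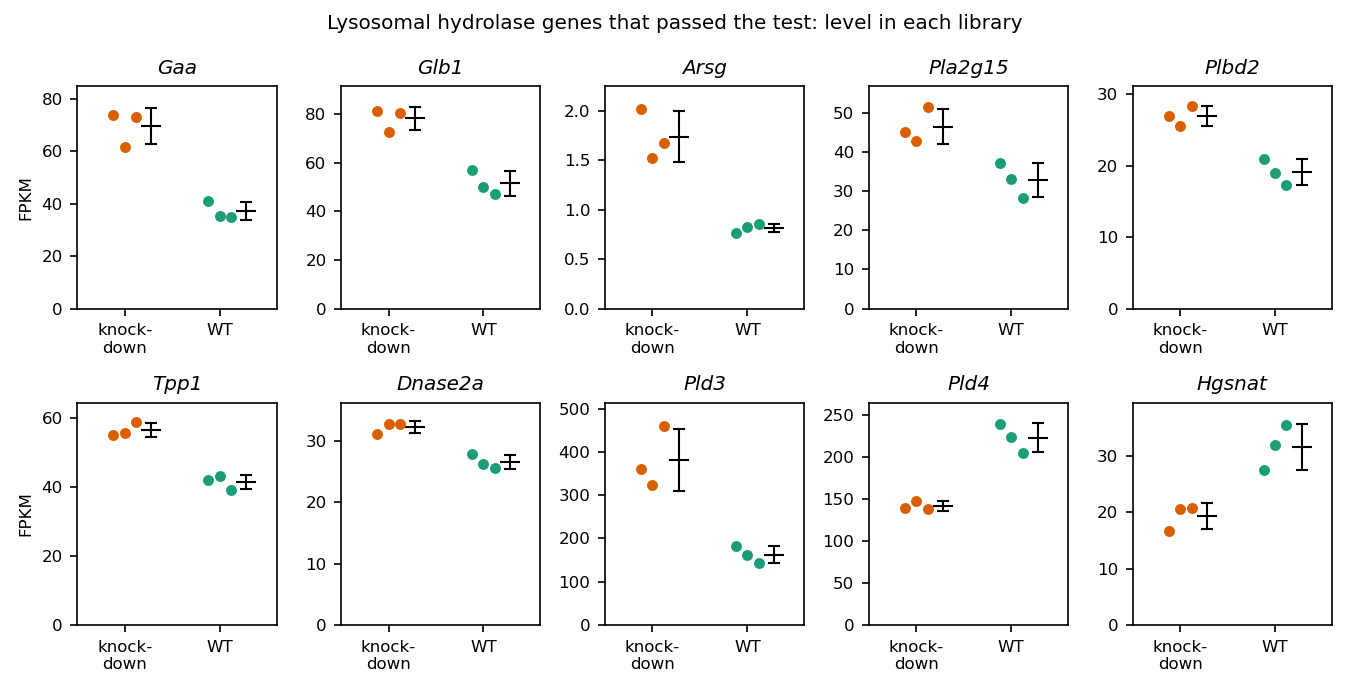
FPKM of the 10 enzyme genes that passed, in each knockdown and WT library (points) with mean ± SD (bars, n = 3 each); each y axis starts at 0. The groups do not overlap in any panel, and Pld4 and Hgsnat are the 2 genes with the knockdown below WT.

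Of the 3 peptide-cutting enzymes, Tpp1 rose (4.87% of all tested genes were higher). Tpp1 (ENSMUSG00000030894, chr7:105744811-105752235, minus strand) encodes tripeptidyl peptidase 1, which takes tripeptides off the end of proteins. It was at 55.0, 55.6 and 58.7 FPKM in knockdown cells and 41.9, 43.2 and 39.2 FPKM in WT, with little spread in either group (log2 fold change 0.50, SE 0.0772, adjusted p = 0.0158). The adjusted p was 0.0561 without knockdown replicate 1, 0.0771 without WT replicate 2 and 0.0501 without WT replicate 3. Scpep1, a serine carboxypeptidase gene, was just over the threshold with 179, 175 and 194 FPKM in knockdown cells and 151, 156 and 149.9 FPKM in WT (log2 fold change 0.31, SE 0.0797, adjusted p = 0.0509). Lgmn, the asparaginyl endopeptidase gene and the most abundant of the class, had 236, 242 and 342 FPKM in knockdown cells and 275, 257 and 241 FPKM in WT (log2 fold change 0.13, adjusted p = 0.632). Only knockdown replicate 3 was above the WT range for Lgmn, and without that library its log2 fold change was -0.070. Acp2, the lysosomal acid phosphatase gene, overlapped between the groups with 25.8, 21.7 and 21.8 FPKM in knockdown cells and 23.1, 21.2 and 17.1 FPKM in WT (log2 fold change 0.22, adjusted p = 0.348).

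Lysosomal enzymes outside the 38 genes, and the proteins that activate or deliver them, were counted for comparison. Of 18 further lysosomal enzyme genes 17 were tested and 6 rose (35.3%, against 4.87% of all tested genes), with a median log2 fold change of 0.33. They included Dpp7, a dipeptidyl peptidase gene, at 65.9 ± 2.82 FPKM in knockdown cells and 37.6 ± 3.10 FPKM in WT (log2 fold change 0.86, adjusted p = 0.00963). Man2b2, a mannosidase gene, also rose, with a log2 fold change of 0.48. Of 12 activation and delivery genes 1 rose (8.33%, against 4.87% of all tested genes). It was Ctsa, which shields Glb1 and Neu1 in a complex, at 338 ± 26.4 FPKM in knockdown cells and 219 ± 11.3 FPKM in WT (log2 fold change 0.68, adjusted p = 0.0159). The median log2 fold change of these 12 was 0.09. Among those that did not pass it was 0.16 for Sumf1, which activates the sulfatases, -0.26 for the phosphotransferase gene Gnptab, and -0.02 and 0.16 for the mannose 6-phosphate receptor genes M6pr and Igf2r. The transcription factor genes Tfeb, Tfe3, Mitf and Tfec did not pass edgeR either (smallest adjusted p 0.0604). Their log2 fold changes were 0.12, -0.37, -0.31 and -0.55, in that order. The 2 with an unadjusted p under 0.05 (30.2% of all tested genes), Tfe3 and Mitf, were lower, and DESeq2 called 1 of the 4 lower (11.8% of all genes).

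**Figure D4:**
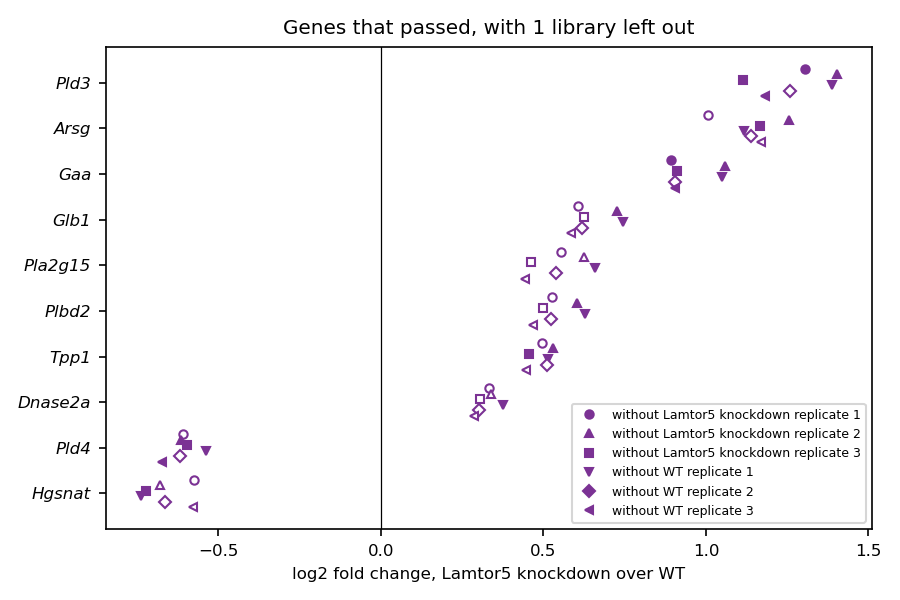
Log2 fold change (knockdown over WT, x axis) of the 10 genes that passed, refitted with 1 library left out at a time; each marker shape is the library left out, filled where the adjusted p stayed under 0.05 and open where it did not. All 60 points keep the sign of the full fit, which groups that do not overlap nearly fix in advance. The markers without WT replicate 2 are all open.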

How the data were processed

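RNA was measured in 3 Lamtor5 knockdown and 3 WT libraries, grouped by the genotype label. A SMARTER mRNA-Seq kit was used, per the labels' protocols. Adapters were trimmed with cutadapt 1.9, per the file headers (minimum overlap 5, minimum read length 100). Coordinates are on GRCm38 (mm10), which the submitters' processing notes name; the sources used here do not name the aligner, counting program or annotation release.

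The authors deposited estimated counts and FPKM per gene. The estimated counts are whole numbers that sum to 2.95 to 3.01 per read pair kept, so they are not a tally of reads and no binomial interval was made. A count of 0 has a deposited FPKM of 0.0001.

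Groups were compared on the estimated counts with edgeR 4.0.16 in R 4.3.3: filterByExpr (minimum count 10), TMM, quasi-likelihood fit, group as the only term, Benjamini-Hochberg adjustment over all genes tested, threshold 0.05. The SE is the log2 fold change divided by the square root of F. FPKM values are mean ± SD (n = 3). The edgeR steps were tested on simulated data. The simulation gave every gene the same dispersion between replicates and held no deviating library. It therefore does not bear on how far the calls depend on single libraries.

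The genes and lists were chosen with earlier results of these data known. Library values are given for genes that passed and, per class, for the most abundant gene and the 2 with the smallest p that did not pass; Naglu, Hyal1, Gusb and Lipa were added after their values were seen. Of the 38 genes 17 overlap another gene in the table, and their values are uncertain where reads were shared. A planned look at protein motifs was not made, and some genes of the comparison lists are not reported here. Alternatives were DESeq2 1.42.0, RLE size factors, counts divided by 3, no filter on counts, limma 3.58.1 on log2(FPKM + 1) or log2(FPKM + 0.1) with a mean of at least 1 FPKM or no filter, a fit blocked on replicate number, and leaving out every library in turn.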

Additional observations from a re-analysis of the deposited data

How the results depend on the processing

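The number of calls depended on the libraries and on the test. Leaving out 1 library at a time, edgeR called 0 to 2334 genes in all, 0 to 13 enzyme genes higher and 0 to 3 lower, and the median log2 fold change of the 38 genes was 0.26 to 0.39. Without knockdown replicate 1, 2 enzyme genes were higher (1.12% of all genes) and 0 lower (0.861%). Without knockdown replicate 2 it was 8 higher (2.71%) and 1 lower (3.29%), without WT replicate 1 it was 13 higher (4.96%) and 3 lower (7.29%), and without WT replicate 3 it was 3 higher (1.39%) and 1 lower (1.9%). The lowest counts came without WT replicate 2, where edgeR gave 4065 genes an unadjusted p under 0.05 and DESeq2, an alternative chosen after seeing the data, called 2240. DESeq2 on all libraries called 3641 genes, 15 enzyme genes higher and 3 lower. Without a count filter edgeR called 1205 genes. Limma without a filter on FPKM called 15 genes, with 0 enzyme genes higher (0.0108% of all genes) and 0 lower (0.0162%); 5618 genes then had an unadjusted p under 0.05. With the replicate number as a block edgeR called 728 genes, with 3 enzyme genes higher (Gaa, Glb1 and Pld3; 1.67% of all genes) and 2 lower (2.33%). Libraries of the same number did not deviate together (correlations 0.05, 0.04 and -0.01), so the numbers are not taken as pairs, and knockdown replicate 3 correlated best with WT replicate 2 (0.03). RLE size factors, counts divided by 3 and limma with a filter moved the enzyme gene counts by less than 1.5 times. Among the 20 genes named by the rule, Lgmn was the only one to change sign in any of 15 alternatives: its log2 fold change was -0.070 to 0.24 with 1 library left out, the lowest without knockdown replicate 3, and it did not pass in any. Outside these 20 genes, Gusb (-0.060 to 0.042) and Lipa (-0.056 to 0.059) also changed sign with 1 library left out. The causes of these differences were not tested.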
